A study of Danio rerio with 12 samples.

Results

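The solute carrier genes of the array comprised 59 targets, each for a different gene, whose current symbol is *slc* followed by a family number. They were found among the 2663 targets (7.17%) that could be given a gene symbol, out of 37157 targets in all, where a target is a transcript or predicted transcript read by a set of probes. The 5 further solute carriers *slc17a6b*, *slc6a5*, *slc22a6l*, *slc13a3*, and *slc25a38a* were not counted as members. The rule reads gene names alone. The 59 genes belonged to 29 of the numbered families. The mitochondrial carriers of family 25 were the largest with 16 members, and 54 of the 59 targets had 12 probes each (fewest 9).

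Wild-type zebrafish of the AB strain were kept from about 1 hr postfertilization (hpf) in water with 0 ppb Pb (control) or with 100 ppb Pb, given as lead acetate, through 72 hpf or through 120 hpf. The 4 groups, control and Pb at 72 hpf and control and Pb at 120 hpf, held 3 biological replicates each, and each replicate was RNA of 50 pooled whole embryos or larvae on an array of its own. Larvae collected at 120 hpf were both older and, in the Pb groups, exposed for longer, so age and length of exposure cannot be told apart in the Pb arm. RNA came from whole animals, so fewer cells of a type and less RNA per cell cannot be told apart in any value below. All values are log2 signals, that is, log2 intensities after quantile normalization over the 12 arrays, averaged over the probes of a target. Probes differ in how strongly they bind, so signals were compared between groups for the same target and not between genes.

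Solute carriers are membrane proteins that move small molecules across the plasma membrane or the membranes of organelles, driven by gradients of the solute itself or of coupled ions. Their numbered families are defined by sequence and largely by substrate. They take up amino acids and return neurotransmitters from the synapse, load synaptic vesicles, exchange sodium, calcium, zinc, and phosphate, carry organic ions out of blood and into urine or bile, and shuttle metabolites through the inner mitochondrial membrane. Between hatching and the onset of feeding, the larval intestine, liver, pronephros, and gill ionocytes of the zebrafish take up transport functions that the yolk and skin serve earlier.

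Some arrays stood apart from others of their group. Across all targets, the Pb array of replicate 1 at 72 hpf had a mean correlation of 0.914 with the others of its group, whereas the other 11 arrays lay between 0.931 and 0.984. The gradient of signal from the first to the last probe of a target, fitted as 1 slope per array, was also steepest on that array (0.608), followed by the Pb array of replicate 2 at 120 hpf (0.468), and it ran from 0.0272 to 0.401 on the rest. At 120 hpf both arrays of replicate 2, control and Pb, lay above or below all 4 other arrays of that time for 33 of the 59 members (55.9%; 38.4% of all targets), 24 above and 9 below. Of 111 organ markers listed for a whole larva, 13 had a named target. The 9 organs with a measured marker were lens, skeletal muscle, heart, neurons, glia, erythrocytes, exocrine pancreas, intestine, and retina photoreceptors. Mean log2 signals of the 13 targets lay between 7.10 and 15.08. Liver, kidney, epidermis, and yolk had no measured marker.

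The stage comparison in controls asked which carriers differed between 72 and 120 hpf without Pb. Transcripts for 5 of the 59 solute carriers rose from 72 to 120 hpf, between 2.80-fold and 5.52-fold, and 0 fell. These were *slc14a2*, a urea transporter that concentrates urea in the mammalian kidney, *slc22a4*, a carrier of organic cations and ergothioneine, *slc47a2.1*, a member of the multidrug and toxin extrusion family, and the mitochondrial carriers *slc25a43* and *slc25a47a*. The calls made up 8.47% of the members, where limma called 3.61% of all targets higher and 1.14% lower at an adjusted p under 0.05. The same 5 genes were called in the Pb arm, where 2.23% of all targets were called higher and 0.729% lower. Of the targets with a gene symbol, 4.47% were called higher in controls and 2.93% with Pb. The arms held different arrays but are not independent. Across all targets, arrays with the same replicate number deviated together in 5 of 6 pairs, and both arms shared a pooled standard error. Of the members, 13 in controls (22.03%; 16.6% of all targets) and 14 with Pb (23.73%; 14.5% of all targets) had an unadjusted p under 0.05. The median log2 fold change of the members was 0.01 in controls, with 30 above 0 and 29 below, beside -0.04 over all targets.

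*slc14a2* gave the largest rise among the members in both arms. Its 3 control values were 6.25, 6.52, and 6.76 at 72 hpf and 8.79, 9.10, and 9.03 at 120 hpf, and its 3 Pb values were 6.80, 6.52, and 7.03 at 72 hpf and 9.62, 9.95, and 8.47 at 120 hpf. Every array of 120 hpf lay above every array of 72 hpf. The log2 fold change was 2.46 in controls (5.52-fold, standard error 0.322, adjusted p = 0.000671 from limma) and 2.56 with Pb (5.90-fold, adjusted p = 0.000681). All 12 probes of the target rose in controls and 11 of 12 with Pb. The size depended on the probes. With only the end probes, those at most 500 nt from the last probe of a target, the log2 fold changes were 1.55 and 1.52 (adjusted p = 0.0238 and 0.0349 from limma).

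Of the organic ion carriers, *slc22a4* was at 6.21, 7.13, and 6.91 in the controls of 72 hpf and at 8.52, 8.93, and 8.49 in those of 120 hpf. With Pb it was at 6.43, 6.84, and 7.36 at 72 hpf and at 8.82, 8.86, and 9.14 at 120 hpf. The groups of 72 and 120 hpf did not overlap, and the rise was 3.73-fold in controls (log2 fold change 1.90, standard error 0.284, adjusted p = 0.00184) and 4.18-fold with Pb (2.06, adjusted p = 0.00138, both from limma). *slc47a2.1*, whose family exports organic cations into urine and bile in mammals, was at 6.84, 7.12, and 7.13 in controls of 72 hpf and 8.71, 9.11, and 8.52 in controls of 120 hpf. Its Pb values were 6.87, 7.25, and 7.41 at 72 hpf and 8.92, 9.95, and 9.20 at 120 hpf. It also rose without overlap, 3.37-fold in controls (log2 fold change 1.75, standard error 0.272, adjusted p = 0.00235) and 4.54-fold with Pb (2.18, adjusted p = 0.000638), and all 12 probes of both genes rose in both arms.

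The other members of this class did not pass the test. *slc22a13b*, of the organic anion carriers, was at 7.10, 7.82, and 7.93 in controls of 72 hpf and at 8.42, 8.33, and 8.58 in controls of 120 hpf, with a log2 fold change of 0.83 (adjusted p = 0.144) and of 0.78 with Pb (adjusted p = 0.208, both from limma). Its 6 values of 120 hpf nevertheless all lay above its 6 values of 72 hpf. *slc22a7a*, another organic anion carrier, had a log2 fold change of -0.22 in controls. The monocarboxylate carrier family members *slc16a10*, which carries aromatic amino acids and thyroid hormones in mammals, and *slc16a4* had log2 fold changes of 0.16 and 0.23. *slc10a3*, an orphan member of the bile acid carrier family, had 0.10, with one of the widest standard errors among the members (0.649).

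**Figure D1:**
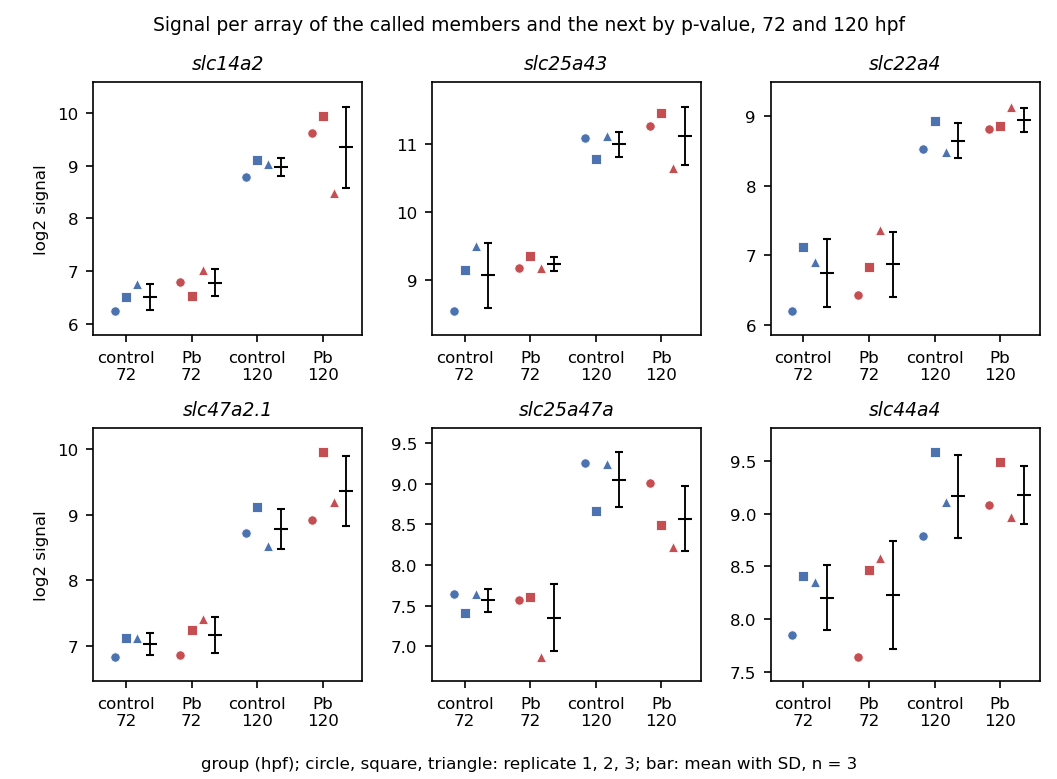
Log2 signal (y axis) of the 5 members called higher at 120 hpf and of *slc44a4*, the riser with the next smallest p-value in controls, for each of the 12 arrays, by group (x axis, control blue and Pb red); symbols mark replicate numbers and bars the mean with SD (n = 3). All 6 arrays of 120 hpf lie above all 6 of 72 hpf in each panel, with *slc14a2* moving from between 6.25 and 7.03 to between 8.47 and 9.95.

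Among the 16 mitochondrial carriers, 2 rose and 14 were not called, where 3.61% of all targets were called higher in controls and 2.23% with Pb. The median log2 fold change of these carriers was 0.01 in controls. *slc25a43*, whose substrate is not settled, was at 8.55, 9.16, and 9.50 in controls of 72 hpf and 11.08, 10.77, and 11.11 in controls of 120 hpf. With Pb it was at 9.17, 9.35, and 9.17 and then at 11.26, 11.45, and 10.64. The lowest value of 120 hpf lay above the highest of 72 hpf by more than 1 log2 unit, and the rise was 3.78-fold in controls (log2 fold change 1.92, standard error 0.268, adjusted p = 0.00108) and 3.70-fold with Pb (1.89, adjusted p = 0.00176, both from limma).

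*slc25a47a*, whose mammalian counterpart is a mitochondrial carrier of the liver, was at 7.64, 7.41, and 7.65 in controls of 72 hpf and 9.25, 8.66, and 9.24 in controls of 120 hpf. Its Pb values were 7.57, 7.60, and 6.87 at 72 hpf and 9.01, 8.49, and 8.22 at 120 hpf. It was 2.80-fold higher in controls (log2 fold change 1.49, standard error 0.269, adjusted p = 0.00674) and 2.34-fold higher with Pb (1.22, adjusted p = 0.028, both from limma). This call was lost in 3 of 22 other settings in controls and in 9 of 22 with Pb. The 22 settings leave out the methods' t-test, the study's criteria, the intensity trend, and the filters on dim targets. Some left out an array of the other arm or kept the same group means, which cannot move the log2 fold change. With the methods' t-test, taken here at an adjusted p under 0.05, *slc25a47a* was called in neither arm. By the study's criteria *slc25a47a* was called in both. As run here, these take an unadjusted p of at most 0.1 and at least a 1.5-fold difference, in the mean and in each replicate. Among the 22 settings, adjusted p was highest with the values as deposited, 0.26 in controls (log2 fold change 1.19) and 0.533 with Pb (0.86). The end probes alone gave 0.201 and 0.175, median polish 0.0999 and 0.0791, and with Pb each of 3 single arrays left out gave 0.0516 to 0.136. Its paralog *slc25a47b* had log2 fold changes of -0.16 in controls and -0.42 with Pb (adjusted p = 0.767 and 0.395). Probes of the pair were designed for separate targets, and cross-hybridization between them was not tested.

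*slc25a34*, an orphan mitochondrial carrier, had the next largest log2 fold change of the family, 1.03 in controls (adjusted p = 0.232 from limma). Its controls of 120 hpf were at 11.56, 10.38, and 11.54 beside 9.81, 10.53, and 10.05 at 72 hpf, and replicate 2 of 120 hpf, also with Pb (10.43), stayed within the range of 72 hpf. *slc25a5*, an ADP/ATP carrier that exports the ATP made in mitochondria, was nearly level on all 12 arrays, between 15.26 and 15.58 on the log2 scale. The brightest probe of every array had an intensity of at least 63331, and 28 of the 132 probe values of *slc25a5* lay within 10% of their array's highest value, so its signal lay near the upper end of the scale, where a rise is hard to see. *slc25a24l*, related to carriers of ATP-Mg and phosphate, had the lowest mean signal of the members, between 5.62 and 6.48 on all arrays (percentile 4.77 of all targets). Values this low leave little room for a fall.

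The remaining mitochondrial carriers lay between -0.34 and 0.47 in controls. They were the dicarboxylate carrier *slc25a10b*, the oxoglutarate carrier *slc25a11*, the aspartate and glutamate carrier *slc25a12*, the ornithine carrier *slc25a15a*, the oxodicarboxylate carrier *slc25a21*, the basic amino acid carrier *slc25a29*, and the mitoferrin *slc25a37*, which brings iron to heme synthesis in red cells. The others were *slc25a40*, a carrier linked to mitochondrial glutathione in mammals, and the coenzyme A carrier *slc25a42*. The last was *slc25a46*, an outer membrane protein that acts in mitochondrial dynamics. *slc25a10b* was at 10.15, 10.27, and 10.36 at 72 hpf and 10.00, 9.86, and 9.90 at 120 hpf in controls. All 3 later values lay below the 3 earlier ones, by 0.34 on the log2 scale in the mean (adjusted p = 0.362 from limma), but with the end probes alone the sign turned (0.21).

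The class of peptide, nucleoside, urea, heme, and choline carriers held *slc14a2* and 5 members that were not called. *slc44a4*, a choline-like carrier that takes up thiamine pyrophosphate in mammalian colon, was at 7.85, 8.41, and 8.35 in controls of 72 hpf and 8.79, 9.58, and 9.12 in controls of 120 hpf. Its Pb values were 7.65, 8.46, and 8.58, and then 9.09, 9.49, and 8.97. The 6 arrays of each time point did not overlap, and the log2 fold changes were 0.96 in controls and 0.95 with Pb (adjusted p = 0.0927 and 0.12 from limma). *slc48a1a*, a heme transporter, had 0.88 (adjusted p = 0.256) in controls, with 10.97 and 11.07 in replicates 1 and 3 of 120 hpf and 9.57 in replicate 2. Without that control array *slc48a1a* passed the test, as *slc24a5* also did. The equilibrative nucleoside transporter *slc29a1a* had -0.59, the monoamine transporter *slc29a4a* 0.32, and the orphan *slc49a3* -0.71 in controls.

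Among the 14 amino acid and neurotransmitter carriers none was called in either arm (background 3.61% and 2.23% higher). *slc6a6b*, a taurine transporter, was at 9.43, 9.86, and 9.74 in controls of 72 hpf and 10.82, 10.48, and 10.56 in controls of 120 hpf. Its controls did not overlap, and the log2 fold change was 0.94 (standard error 0.319, adjusted p = 0.132 from limma). *slc1a1*, a neuronal and epithelial glutamate transporter, had log2 fold changes of 0.54 and 0.43 (adjusted p = 0.12 and 0.277), with controls at 9.58, 9.59, and 9.62 and then at 10.08, 10.16, and 10.19. *slc43a3b*, of a family of neutral amino acid and nucleobase carriers, had 0.26 and 0.27. In both, the 6 arrays of 120 hpf lay above the 6 of 72 hpf, by small margins. The vesicular carriers of neurons were not called. The glutamate loader *slc17a6a* had -0.51 in controls, the acetylcholine loader *slc18a3b* -0.65, and the GABA and glycine loader *slc32a1* -0.23. *slc17a5*, which exports sialic acid from lysosomes, had -0.17. The proline transporter *slc6a7* had 0.30, *slc7a4* and *slc7a6* of the cationic amino acid families -0.37 and -0.48, and the neutral amino acid carrier *slc43a1b* 0.55. The family 38 members *slc38a3a*, a glutamine carrier, *slc38a9*, the arginine sensor of lysosomes, and *slc38a11* lay between -0.12 and 0.01.

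Of the members with lower means at 120 than at 72 hpf, none passed the test, and *slc24a5* had the lowest log2 fold change in controls. *slc24a5*, the exchanger of melanosomes mutated in the zebrafish golden strain, was at 9.75, 8.76, and 9.26 in controls of 72 hpf and 7.97, 9.25, and 8.10 in controls of 120 hpf. Its Pb values were 8.58, 8.96, and 8.82, and then 8.15, 8.69, and 8.12. Replicate 2 of 120 hpf stood above the others in both arms, and the log2 fold change of -0.82 in controls (adjusted p = 0.246 from limma) was -1.22 without that control array (adjusted p = 0.0405). *slc30a1b*, a zinc exporter, was at 7.31, 7.56, and 7.56 in controls of 72 hpf and 6.36, 7.30, and 6.66 in controls of 120 hpf. Its Pb values were 7.61, 7.46, and 8.03, and then 6.88, 7.45, and 6.60. Neither the controls nor the Pb arrays overlapped between the ages, and the log2 fold changes were -0.70 and -0.73 (adjusted p = 0.223 and 0.234). The zinc exporter *slc30a4* had 0.46 and the zinc importer *slc39a10* -0.14 in controls, so the 3 zinc carriers did not share a direction.

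Of the other ion carriers, the sodium and calcium exchanger *slc8a4a* had -0.58, the endosomal sodium and proton exchanger *slc9a6a* -0.11, the sodium, potassium, and chloride cotransporter *slc12a2* -0.30, and the phosphate cotransporter *slc34a2b* 0.30 in controls. Among the nucleotide sugar carriers of the Golgi, *slc35a3b*, for UDP-N-acetylglucosamine, was at 7.88, 7.73, and 7.97 in controls of 72 hpf and 7.00, 7.89, and 7.36 in controls of 120 hpf (log2 fold change -0.44, adjusted p = 0.435 from limma). Control replicate 2 again stayed within the range of 72 hpf. *slc35b3*, which carries the sulfate donor PAPS, had -0.16 and *slc35c1*, which carries GDP-fucose, 0.16.

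*slc33a1*, which brings acetyl-CoA into the endoplasmic reticulum, was at 10.04, 9.65, and 9.83 at 72 hpf and 9.23, 9.70, and 9.16 at 120 hpf in controls (-0.47, adjusted p = 0.441 from limma). *slc37a1*, a glucose-6-phosphate antiporter of the endoplasmic reticulum, was at 9.93, 9.93, and 9.87 and then at 9.36, 9.93, and 9.36 (-0.36, adjusted p = 0.47). In both genes control replicates 1 and 3 were low at 120 hpf and replicate 2 was not. The related *slc37a2* had 0.20, and the fatty acid carriers *slc27a1b* and *slc27a6* had 0.34 and 0.21.

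**Figure D2:**
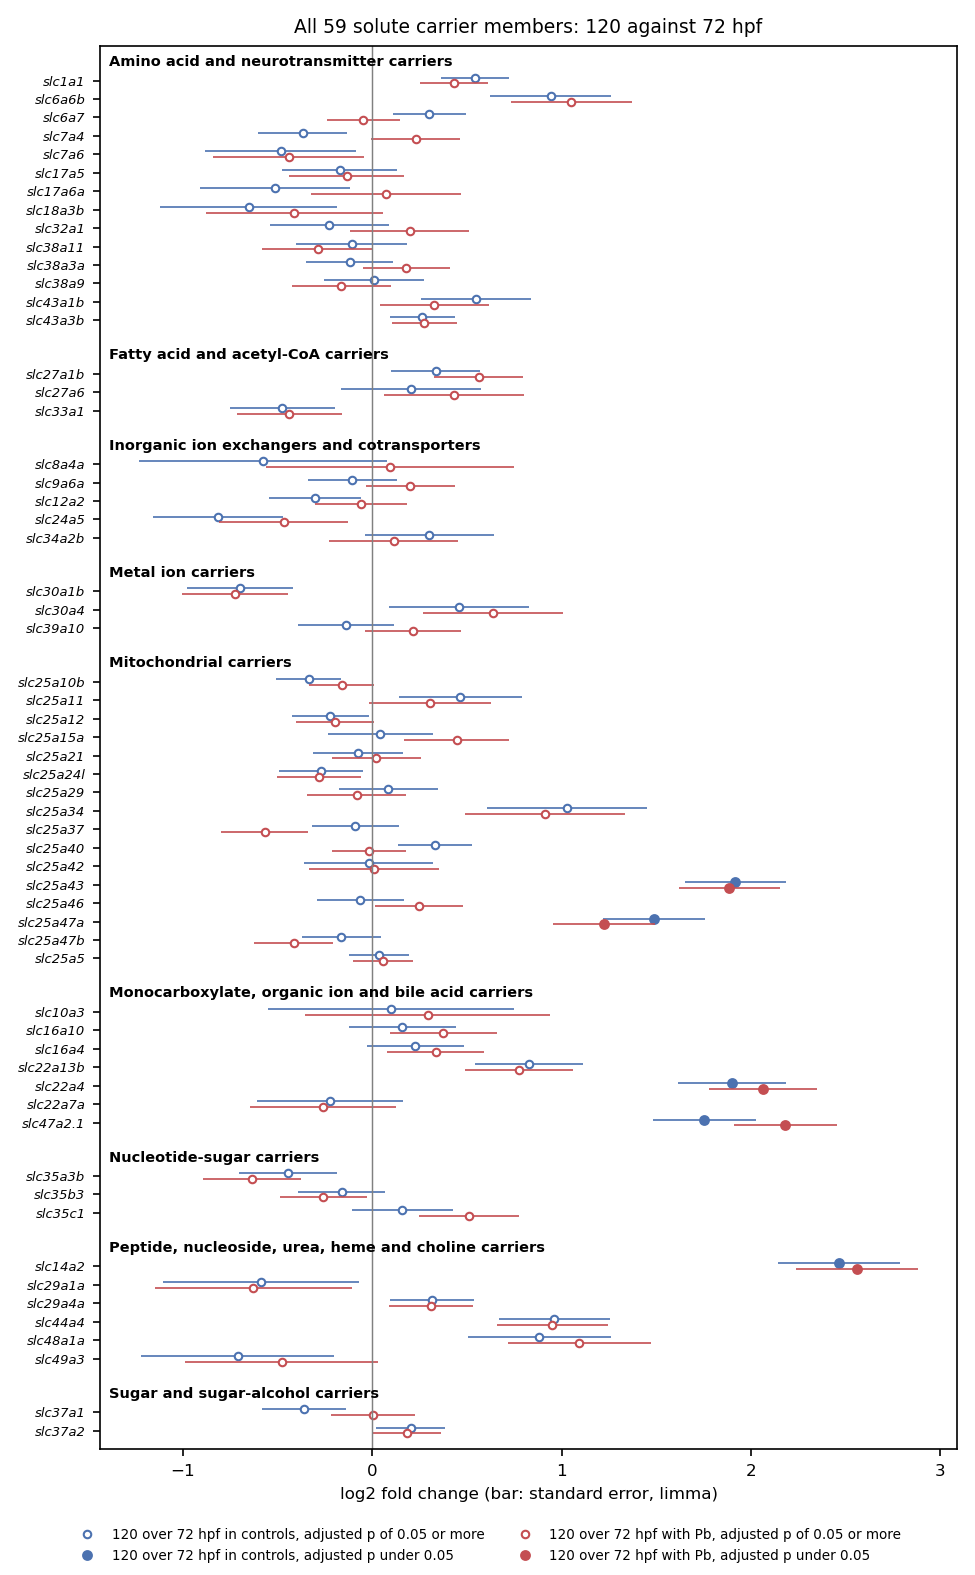
Log2 fold change of 120 over 72 hpf (x axis, bars: standard error) for all 59 solute carriers in controls (blue) and with Pb (red), by substrate class; filled points passed an adjusted p under 0.05 in limma. The 5 filled genes are the same in both arms, and no point to the left of 0 is filled.

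Replicate 2 of 120 hpf, control and Pb alike, was the pair in which most members stood apart from the other pairs of that time. *slc24a5*, *slc30a1b*, *slc33a1*, *slc35a3b*, and *slc37a1* were among the 24 members higher in it, and *slc25a34*, *slc48a1a*, *slc17a6a*, and *slc25a42* among the 9 lower. In 16 of the 33 members the pair's mean lay nearer to the mean of the 6 arrays of 72 hpf than the mean of the other 4 arrays of 120 hpf did. The same held for 3 of the 7 members that stood apart in pair 1 of 120 hpf and for 2 of 7 in pair 3. It was not counted over all targets. At 72 hpf, 21 members stood apart in pair 1, 17 of them below (35.6%, and 28.6% of all targets), 17 in pair 2, 13 of them above (28.8%, and 17.7% of all targets), and 5 in pair 3 (8.47%, and 11.8% of all targets). In pairs 1 and 3 of 120 hpf, 7 members each stood apart (11.9%; 24.9% and 13.3% of all targets). The 5 called genes were called without either array of this pair in controls, whereas *slc25a47a* lost its call with Pb when the Pb array of replicate 2 was left out (adjusted p = 0.0516). What set this pair apart was not tested.

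Across both arms together, 9 members (15.3%) had all 6 arrays of 120 hpf above all 6 of 72 hpf, where 5.44% of all targets did. They were the 5 called genes and *slc44a4*, *slc22a13b*, *slc1a1*, and *slc43a3b*. For 0 members did all 6 arrays lie below, where 3.10% of all targets did. With Pb the members' median log2 fold change was 0.18, with 37 above 0 and 22 below, beside -0.05 over all targets. It was 0.05 without the Pb array of replicate 1 at 72 hpf and -0.08 with the values kept as deposited, where the median of all targets moved to -0.33.

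Other transport genes, which the naming rule did not count as members, were counted from lists of the same kind. They were set apart by name and not by how they move solutes. Higher at 120 hpf in controls were 1 of 3 ABC transporters (*abcg2a*), 1 of 3 organic anion transporters of the *slco* family (*slco2b1*), the ammonia transporter *rhcga* (log2 fold change 3.25; 3.00 with Pb), and 1 of 22 channel genes (*kcnip3a*, which encodes a protein that binds potassium channels). With Pb, *abcg2a* and *rhcga* were called again. Over all targets 3.61% were called higher in controls and 2.23% with Pb. Of 2 V-type and 3 P-type ATPase genes, 3 ATP synthase genes, and 3 aquaporins, 0 were called in either arm. Among the 5 solute carriers not counted as members, *slc25a38a* rose in both arms and *slc22a6l* in the Pb arm. The exocrine pancreas marker *prss59.1*, a trypsin, rose from 72 to 120 hpf as well (log2 fold change 1.58 in controls, adjusted p = 0.0163 from limma), and the embryonic globin *hbae3* fell (-1.01, adjusted p = 0.0253). The glial marker *fabp7a* was called lower with Pb (-1.21) and was at -0.80 in controls without a call. No other measured marker was called in either arm, and the intestine marker *cdx1b* was at -0.17 in controls and -0.61 with Pb. Their part in the members' rises was not tested.

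The Pb comparisons asked whether the carriers differed between Pb and control of the same age. At 72 hpf limma called 0 of the 59 solute carriers (background 0% of all targets in both directions), and the smallest adjusted p among them was 0.999. At an unadjusted p under 0.05 there were 2, *slc35c1* and *slc7a4*, both lower with Pb (3.39% of members, 1.52% of all targets), and 3 with the replicate as a block (4.60% of all targets). The methods' t-test took 0 at that level. The log2 fold changes ran from -0.83 to 0.37, with 25 above 0 and 34 below and a median of -0.02, beside 0.04 over all targets. The 3 Pb values lay entirely above the controls in 1 member (*slc6a7*; 2.78% of all targets) and entirely below in 3 (*slc7a4*, *slc37a1*, and *slc25a5*; 1.92% of all targets). Both Pb comparisons share their arrays with the stage comparisons above.

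The lowest member with Pb at 72 hpf was *slc8a4a*, and that value rested on 1 array. Its controls were at 9.09, 9.94, and 9.65 and its Pb arrays at 7.09, 9.60, and 9.49. Only Pb replicate 1 lay below the controls. The log2 fold change was -0.83 (standard error 0.655, 95% interval -2.25 to 0.59) and was -0.02 without that array. At 120 hpf its controls were at 9.03, 8.92, and 9.01 and its Pb arrays at 9.45, 7.36, and 9.65, again with a single low array, replicate 2. These were the 2 arrays with the steepest gradient of signal along targets. On the Pb array of replicate 1 at 72 hpf the 2 probes nearest the end of the target averaged 7.70 and the other 10 probes 6.97, beside 9.06 and 9.10 on its control. The part of the gradient in these values was not tested.

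*slc35c1* was at 8.95, 9.25, and 8.86 in controls of 72 hpf and 8.18, 9.12, and 7.99 with Pb. Replicates 1 and 3 were low with Pb and replicate 2 was within the controls' range, and the log2 fold change was -0.59 (standard error 0.266, unadjusted p = 0.0454, adjusted p = 0.999 from limma). It was -0.25 with the end probes alone. *slc7a4*, an orphan member of the cationic amino acid family, was at 8.75, 8.74, and 8.44 in controls and at 7.74, 8.41, and 8.11 with Pb. Its values came close without overlap, and its log2 fold change was -0.56 (standard error 0.235, unadjusted p = 0.0345, adjusted p = 0.999). *slc17a6a* was at 11.22, 11.36, and 11.14 in controls and at 10.23, 11.30, and 10.46 with Pb (log2 fold change -0.58, adjusted p = 0.999), and all 12 of its probes were lower in the mean.

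The members highest with Pb at 72 hpf in all 3 pairs were smaller in size. *slc25a40* was at 7.99, 7.72, and 7.82 in controls and at 8.45, 7.87, and 8.24 with Pb (log2 fold change 0.34), and *slc25a47b* at 8.19, 8.31, and 8.36 and then at 8.30, 8.50, and 8.70 (0.21). The values overlapped in both, as did those of *slc14a2* (0.28). None of the 3 passed the test (adjusted p = 0.999 from limma for each). The largest mean difference upward was that of *slc25a37* (0.37), where pair 2 had the other sign.

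**Figure D3:**
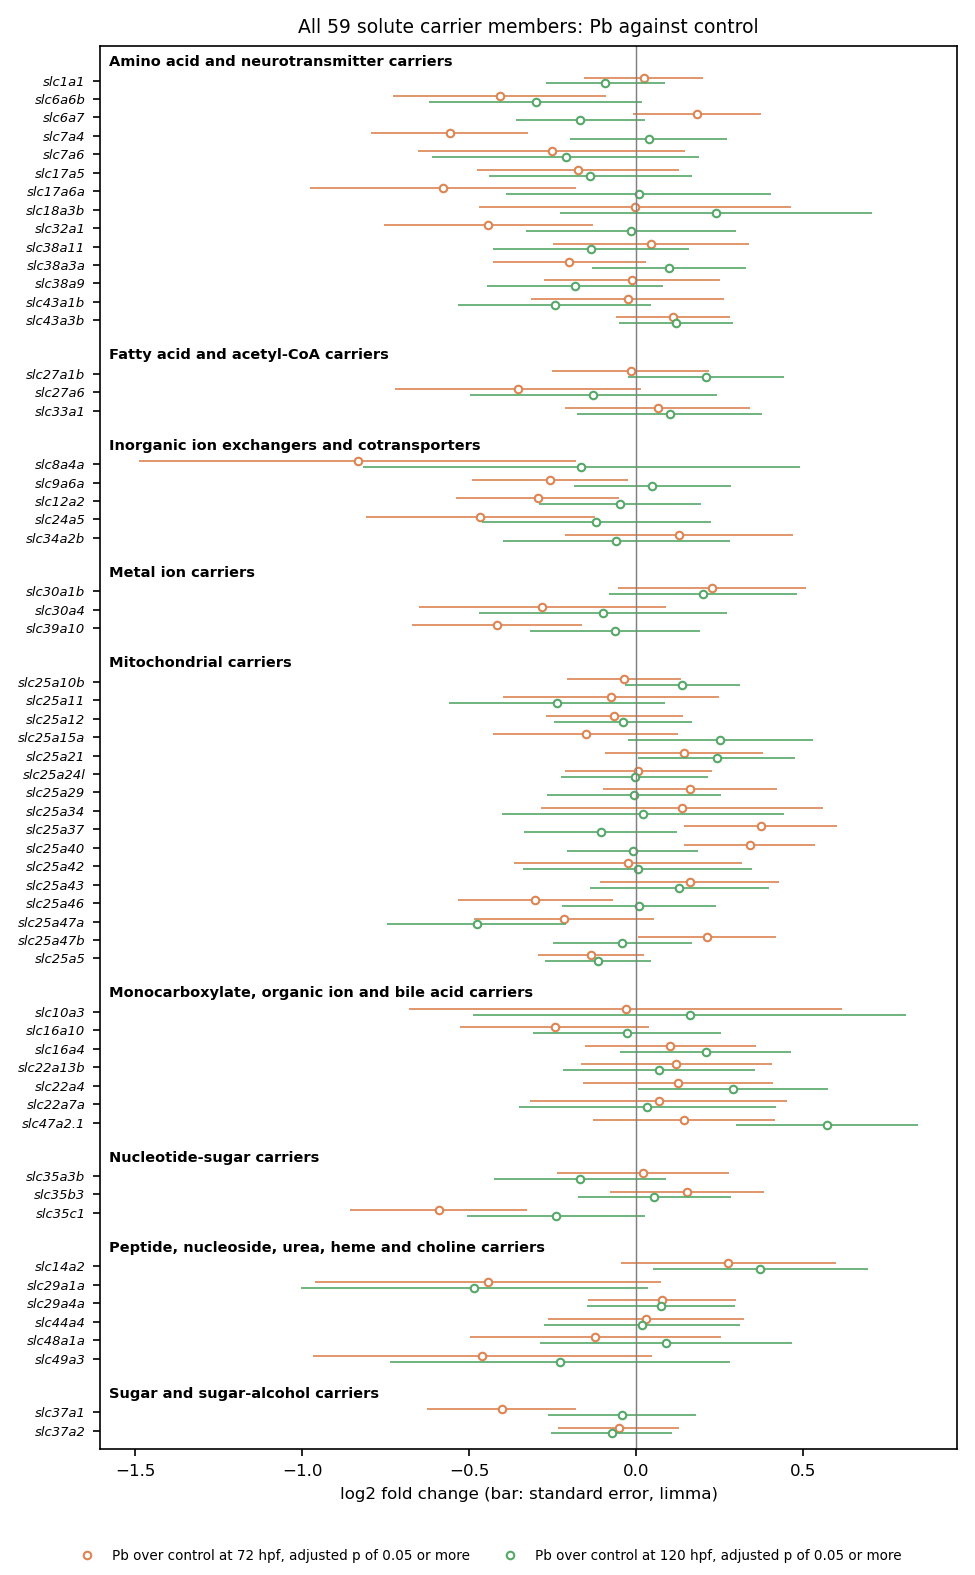
Log2 fold change of Pb over control (x axis, bars: standard error) at 72 hpf (orange) and 120 hpf (green) for all 59 solute carriers, by substrate class. No point passed an adjusted p under 0.05, and values run from -0.83 to 0.37 at 72 hpf and from -0.48 to 0.57 at 120 hpf.

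At 120 hpf limma called 0 of the 59 members (background 0% in both directions), 0 had an unadjusted p under 0.05 (0.301% of all targets), and 1 did with the replicate as a block (1.03% of all targets). The methods' t-test took 0 at that level. The log2 fold changes ran from -0.48 to 0.57, with 27 above 0 and 32 below and a median of -0.01, beside 0.00 over all targets. The 3 Pb values lay entirely above the controls in 1 member (*slc43a3b*, at 9.32, 9.26, and 9.27 in controls and 9.38, 9.49, and 9.34 with Pb; 2.22% of all targets) and entirely below in 0 (1.82% of all targets).

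*slc47a2.1* was the highest member with Pb at 120 hpf, with log2 ratios of 0.21, 0.83, and 0.67 in the 3 pairs. Its mean difference was 0.57 (standard error 0.272, 95% interval -0.02 to 1.16, unadjusted p = 0.056), and 10 of its 12 probes were higher in the mean. At 72 hpf the difference was 0.14, and the change of the Pb effect with stage was 0.43 (95% interval -0.40 to 1.26). *slc25a15a* was at 8.83, 9.37, and 8.56 in controls and at 9.01, 9.63, and 8.88 with Pb (0.25), and *slc25a21* at 8.27, 8.86, and 8.57 and then at 8.42, 9.21, and 8.80 (0.24). Both were higher with Pb in every pair while the groups overlapped, and *slc25a15a* turned to -0.32 with the end probes.

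*slc25a47a*, which rose with age, was lower with Pb at 120 hpf in all 3 pairs, by log2 ratios of -0.25, -0.17, and -1.02. The mean difference was -0.48 (95% interval -1.06 to 0.11), 6 of its 12 probes were lower in the mean, and with the end probes it was -0.08. *slc6a6b* was at 10.79, 10.28, and 9.90 with Pb beside 10.82, 10.48, and 10.56 in controls (-0.30, and 0.01 with the end probes). *slc43a1b* was at 9.44, 10.13, and 9.57 in controls and at 9.35, 10.05, and 9.01 with Pb (-0.24, and 0.19 with the end probes). The lowest mean of all members, that of *slc29a1a* (-0.48), had pair values of both signs. The adjusted p from limma rounded to 1 for each of these genes.

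**Figure D4:**
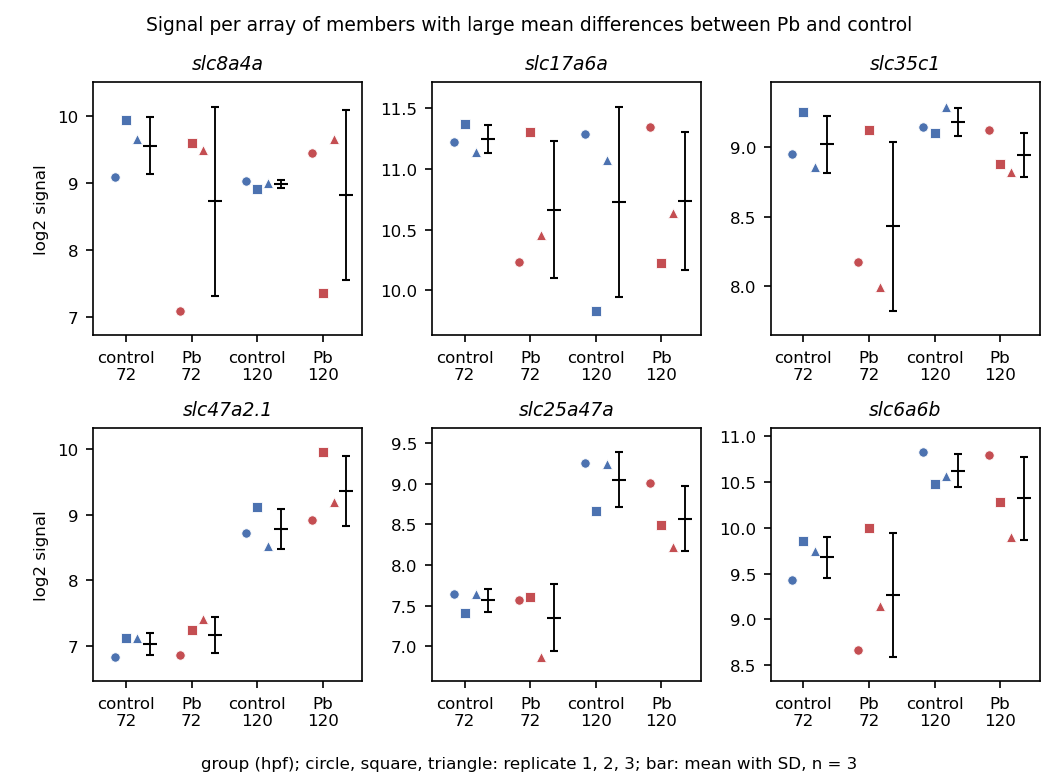
Log2 signal (y axis) on each of the 12 arrays for 6 members with large mean differences between Pb and control, picked by hand. Groups are on the x axis (control blue, Pb red), symbols mark replicate numbers, and bars show the mean with SD (n = 3). Some members with larger differences than *slc6a6b* are not shown, such as *slc7a4* (-0.56 at 72 hpf). *slc8a4a* shows a single low Pb array at each age, 7.09 in replicate 1 of 72 hpf and 7.36 in replicate 2 of 120 hpf.

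None of the 5 genes that rose with age was called for Pb at either age, and the intervals were wide. For *slc14a2* the Pb difference was 0.28 at 72 hpf (95% interval -0.42 to 0.97) and 0.37 at 120 hpf (-0.33 to 1.07), with pair values of 0.82, 0.85, and -0.55 at 120 hpf. For *slc22a4* it was 0.13 (-0.49 to 0.74) and 0.29 (-0.33 to 0.91), and for *slc25a43* 0.16 (-0.42 to 0.74) and 0.13 (-0.45 to 0.71). The difference of the Pb effect between the ages was tested for all members, and limma called 0 (background 0%). At an unadjusted p under 0.05 there were 0 (0.202% of all targets), and the differences ranged from -0.48 to 0.67. The median 95% interval of a Pb difference reached 0.59 to either side on the log2 scale (0.34 to 1.42 over the members). It lay wholly within a 2-fold difference in either direction for 44 of the 59 members at 72 hpf and for 50 at 120 hpf. These intervals come from the fit without a replicate block, which counts spread shared by the arrays of a pair as error. Intervals with the block are not given here.

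No class of carriers had a member called for Pb. The 7 monocarboxylate, organic ion, and bile acid carriers had 5 above 0 at 72 hpf and 6 at 120 hpf, with medians of 0.10 and 0.16. The 14 amino acid and neurotransmitter carriers had 10 below 0 at 72 hpf and 9 at 120 hpf, with medians of -0.10 and -0.11, and the 5 ion exchangers and cotransporters had 4 below 0 at each age, with medians of -0.29 and -0.06. The 16 mitochondrial carriers were split, with 8 below 0 at 72 hpf and 9 at 120 hpf.

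Zinc and iron carriers were set side by side because Pb can take the place of these metals in proteins. *slc30a1b*, whose mammalian counterpart is induced by zinc, had Pb differences of 0.23 at 72 hpf and 0.20 at 120 hpf, with overlapping groups. *slc30a4* was at 9.27, 9.71, and 9.47 in controls of 72 hpf and at 8.44, 9.57, and 9.59 with Pb (-0.28, with only replicate 1 below the controls), and differed by -0.10 at 120 hpf. *slc39a10* was at 10.18, 10.14, and 10.00 in controls of 72 hpf and at 9.26, 10.26, and 9.54 with Pb (-0.42), and differed by -0.06 at 120 hpf. Replicates 1 and 3 were low with Pb at 72 hpf and replicate 2 was not. *slc25a37* had 0.37 and -0.11, and the heme carrier *slc48a1a* -0.12 and 0.09, so these 5 genes had differences of both signs and none was called.

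The Pb effect at 120 hpf minus that at 72 hpf was highest for *slc8a4a* (0.67, but -0.15 without the Pb array of replicate 1 at 72 hpf) and lowest for *slc25a37* (-0.48). *slc7a4* had the smallest unadjusted p for this difference among the 59 (0.60, unadjusted p = 0.0975 from limma), with 8.50, 7.97, and 8.36 in controls of 120 hpf and 8.63, 8.24, and 8.06 with Pb. Its Pb difference of -0.56 at 72 hpf was thus 0.04 at 120 hpf, and the change between the ages did not pass the test.

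How far the members spread between Pb and control differed more between replicate pairs than between ages. At 72 hpf, 16 members in pair 1 and 11 in pair 3 differed by at least 1.5-fold between the arrays of the pair, against 1 in pair 2 (*slc33a1*, 0.72). The shares over all targets were 26.9%, 28.9%, and 3.35% in pairs 1, 3, and 2. At 120 hpf it was 2 members in pair 1, 11 in pair 2, and 8 in pair 3 (2.94%, 16.9%, and 13.4% of all targets). The members' medians lay between -0.11 and 0.09 in the 6 pairs, and the members were thus spread to both sides in each.

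**Figure D5:**
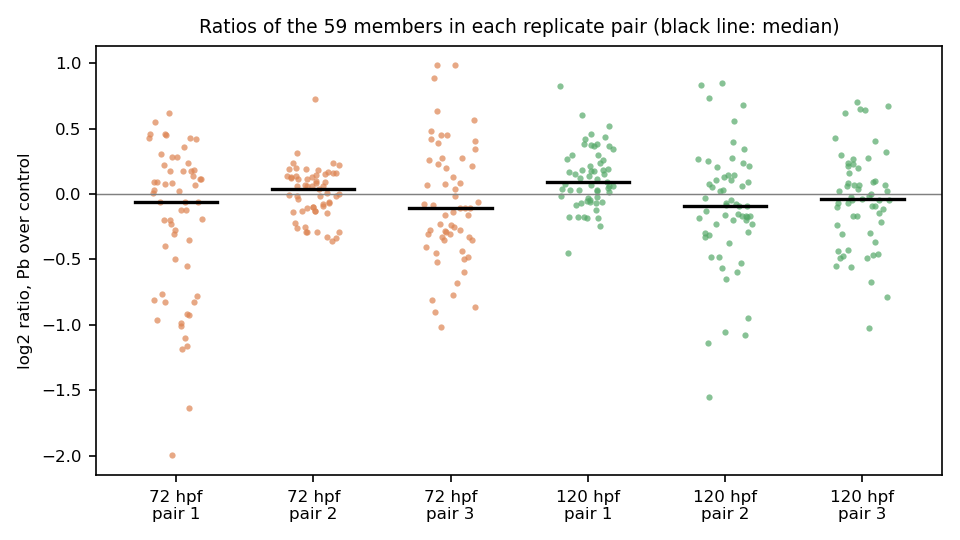
Log2 ratio of Pb over control (y axis) for each of the 59 members in each replicate pair of 72 hpf (orange) and 120 hpf (green); black lines are medians, between -0.11 and 0.09. Points spread widely in pairs 1 and 3 of 72 hpf and pairs 2 and 3 of 120 hpf, and closely in pair 2 of 72 hpf and pair 1 of 120 hpf.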

How the data were processed

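RNA of 12 pools of whole zebrafish was measured on one-color arrays. The values deposited were linear intensities, 1 per probe and array, for 385000 probes. Quantile normalization and RMA are given in the methods and, for RMA, in the submitters' processing notes (version not given in the sources used here). In the deposited intensities this normalization held only within each pair of control and Pb arrays, where sorted log2 values differed by at most 0.00902, and between pairs they differed by 0.0838 to 0.966.

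For this report log2 intensities were quantile normalized across 12 arrays, which assumes like distributions at both ages, and each target received the mean of its probes. No background was subtracted and no dim target removed. Symbols came from the platform annotation (2626 targets) and RefSeq accessions (37 targets), and 34494 targets stayed unnamed. Tests used limma 3.58.1 in R 4.3.3, with tables read by the data.table package (version 1.17.8). The linear model held the 4 groups and no replicate block, moderated by eBayes, with Benjamini-Hochberg adjustment across 37157 targets and a threshold of 0.05. The code was also tested on simulated data. The members, classes, and gene lists were chosen with earlier results of these data known.

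Every member is named. Array values are given for 6 members higher and 6 lower at 120 than at 72 hpf in controls (called members first, then by smallest p-value), the 3 highest and 3 lowest with Pb at each age among those with one sign in 3 pairs, and the highest and lowest mean signal. *slc7a4*, *slc1a1*, *slc22a13b*, *slc25a34*, *slc43a3b*, *slc48a1a*, *slc30a4*, and *slc39a10* were given array values after their data were seen.

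To check whether replicate numbers pair the arrays, deviations from group means were correlated across targets. They were 0.548, 0.434, and 0.268 for replicates 1, 2, and 3 at 120 hpf, which pairs the arrays there by the data. At 72 hpf they were 0.452, 0.402, and -0.069, so replicate 3 did not pair by this measure. No cutoff was set. Sorted deposited values matched within every pair, that one included. Over the members alone the correlations at 72 hpf were 0.622, 0.516, and 0.221. The slope along targets was fitted over 21779 targets. Results were recomputed with a replicate block, with the compared arrays alone, by the methods' t-test and the study's criteria, with median polish, median centering, unchanged deposited values, filters on dim targets, end probes, an intensity trend, array weights, a subtracted background, and 1 value per symbol, and without each array. Leaving out pair 1 of 72 hpf was chosen after seeing the data. The number of arrays limits the precision.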

Additional observations from a re-analysis of the deposited data

How the results depend on the processing

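In controls the 5 calls for a rise with age became 2 (*slc14a2* and *slc1a1*) under the methods' t-test at a Benjamini-Hochberg adjusted p under 0.05. The methods themselves take an unadjusted p of at most 0.1, together with fold thresholds. The calls became 3 with values as deposited and 1 with the lowest 50% of targets left out (*slc25a43*, with 36 members still tested). With array weights they became 27 (16 higher, 11 lower), where 37.25% of all targets were called. Those weights gave control replicate 3 of 120 hpf 13.04 and every other array at most 1.84. With Pb the 5 calls became 0 under the methods' t-test with the same adjustment (8 at an unadjusted p under 0.05) and 1 with the lowest 50% left out. The filter on the lowest 50% removed *slc14a2*, *slc22a4*, *slc47a2.1*, and *slc25a47a* before testing, as their mean signals lay below the median of all targets. It therefore did not test whether their calls hold. Leaving out single arrays gave 5 to 7 calls in controls and 4 to 6 with Pb. Of these counts for age, only that with array weights has its share of all targets beside it. The others therefore do not show whether the members changed more than all targets did. With a replicate block, limma called 5, 5, 0, 0, and 0 members for age in controls, age with Pb, Pb at 72 hpf, Pb at 120 hpf, and Pb by age, so the block changed no call. Pb at either age had 0 calls under every alternative run, with up to 6 members at an unadjusted p under 0.05 at 72 hpf (without the Pb array of replicate 2; 10.02% of all targets) and up to 3 at 120 hpf (array weights; 6.62% of all targets). *slc14a2*, *slc22a4*, and *slc25a43* kept their call in both arms in 22 settings. These leave out the methods' t-test, the study's criteria, the intensity trend, and the filters on dim targets. Some of the 22 left out an array of the other arm or kept the same group means, which cannot move the log2 fold change. Among the 22 settings, *slc47a2.1* missed its call once (adjusted p = 0.0533 from limma, as deposited, in controls). *slc25a47a* missed it 3 times in controls and 9 times with Pb.

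Signs turned for some members. With the end probes alone (at most 500 nt from a target's last probe), *slc25a10b* changed to 0.21 in controls and 0.57 with Pb for age, and at 120 hpf with Pb *slc6a6b* changed to 0.014, *slc43a1b* to 0.19, and *slc25a15a* to -0.32. *slc37a1*, at 0.00 for age with Pb, was at -0.023 with median polish, -0.018 with a subtracted background, -0.24 as deposited, -0.045 with the end probes, -0.092 with array weights, -0.19 without pair 1 of 72 hpf, and between -0.19 and 0.11 with single arrays left out. The cause of these changes was not tested.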
